A study of Sus scrofa with 8 samples.

Results

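The genes described here are 3 markers of lymphatic endothelium, LYVE1, PDPN and PROX1, in the endometrium (the inner lining of the uterus) of pigs. They are set against 7 endothelial genes grouped here as blood vessel members, PECAM1, CDH5, CLEC14A, VWF, CLDN5, TIE1 and TEK. Members were found by matching the Entrez identifier of each deposited transcript to the pig gene symbol, taking the transcript with the highest mean count. Of the 10 genes, 9 had a transcript, 1 each, among 24139 transcripts of 21064 Entrez genes, and CDH5 was not analysed here. RNA-seq of poly(A) RNA was done on 8 prepuberal German Landrace gilts on day 14 after insemination. All of them had received 750 IU of PMSG to start follicle growth and, 72 h later, 500 IU of hCG to set the time of ovulation. The 4 gilts of the pregnant group were given Pietrain semen 24 h and 36 h after hCG, and the 4 control gilts were given cell-free semen supernatant of the same boar. Endometrium of pregnant gilts was cut from hyperemic zones, the reddened places of embryo attachment, and that of control gilts from comparable places, so pregnancy and the choice of those zones cannot be told apart. Each library holds 1 animal, with RNA of 3 places along 1 uterine horn pooled.

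Blood vessel endothelium and lymphatic endothelium line separate vessel systems and share part of their genes. Lymphatic endothelium may therefore make part of the reads of the blood vessel members, which was not tested. Blood endothelial cells are held together by junction proteins, bind platelets through stored von Willebrand factor and respond to angiopoietins through the TIE receptors. Lymphatic endothelium takes its identity from the transcription factor PROX1 and drains fluid and leukocytes from the tissue. In the uterus both vessel systems are remodelled over the cycle and in early pregnancy.

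Library totals lay between 28035007 and 41016150 counts, and RNA integrity numbers between 7.0 and 8.8. No pair of libraries of a group held alike counts, with a chi-square per degree of freedom of 41.3 to 96.1 between replicates. Levels are given as CPM, counts normalised to a common library size with TMM scaling. KRT8, a keratin of simple epithelia such as the uterine lining, was at 1257 ± 252 CPM in control and 294 ± 53.0 CPM in pregnant gilts (SD, n = 4 each). It is not particular to the uterus and differed between the groups, so it cannot establish the label of the tissue. Changes are log2 of pregnant over control from edgeR's quasi-likelihood test with its standard error (SE) and the p-value adjusted by the Benjamini-Hochberg method over 18783 transcripts, with 0.05 as the threshold. The test called 21.3% of these transcripts, 11.2% as higher and 10.1% as lower in pregnant gilts. Over the same transcripts the median log2 change was -0.02.

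The lymphatic markers LYVE1 and PDPN were lower in the pregnant gilts, by 3.23-fold and 2.91-fold. Of 6 blood vessel members 1 rose, CLEC14A by 1.68-fold, and 5 did not pass the test. PROX1, the remaining lymphatic marker, had too few reads to be tested. So of 8 members tested 3 passed in either direction, 2 of them lower and 1 higher, where 21.3% of all tested transcripts passed. The median log2 change was -1.62 over the 2 tested lymphatic members and 0.10 over the 6 blood vessel members. In bulk tissue, fewer cells of a type and less RNA per cell cannot be told apart.

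**Figure D1:**
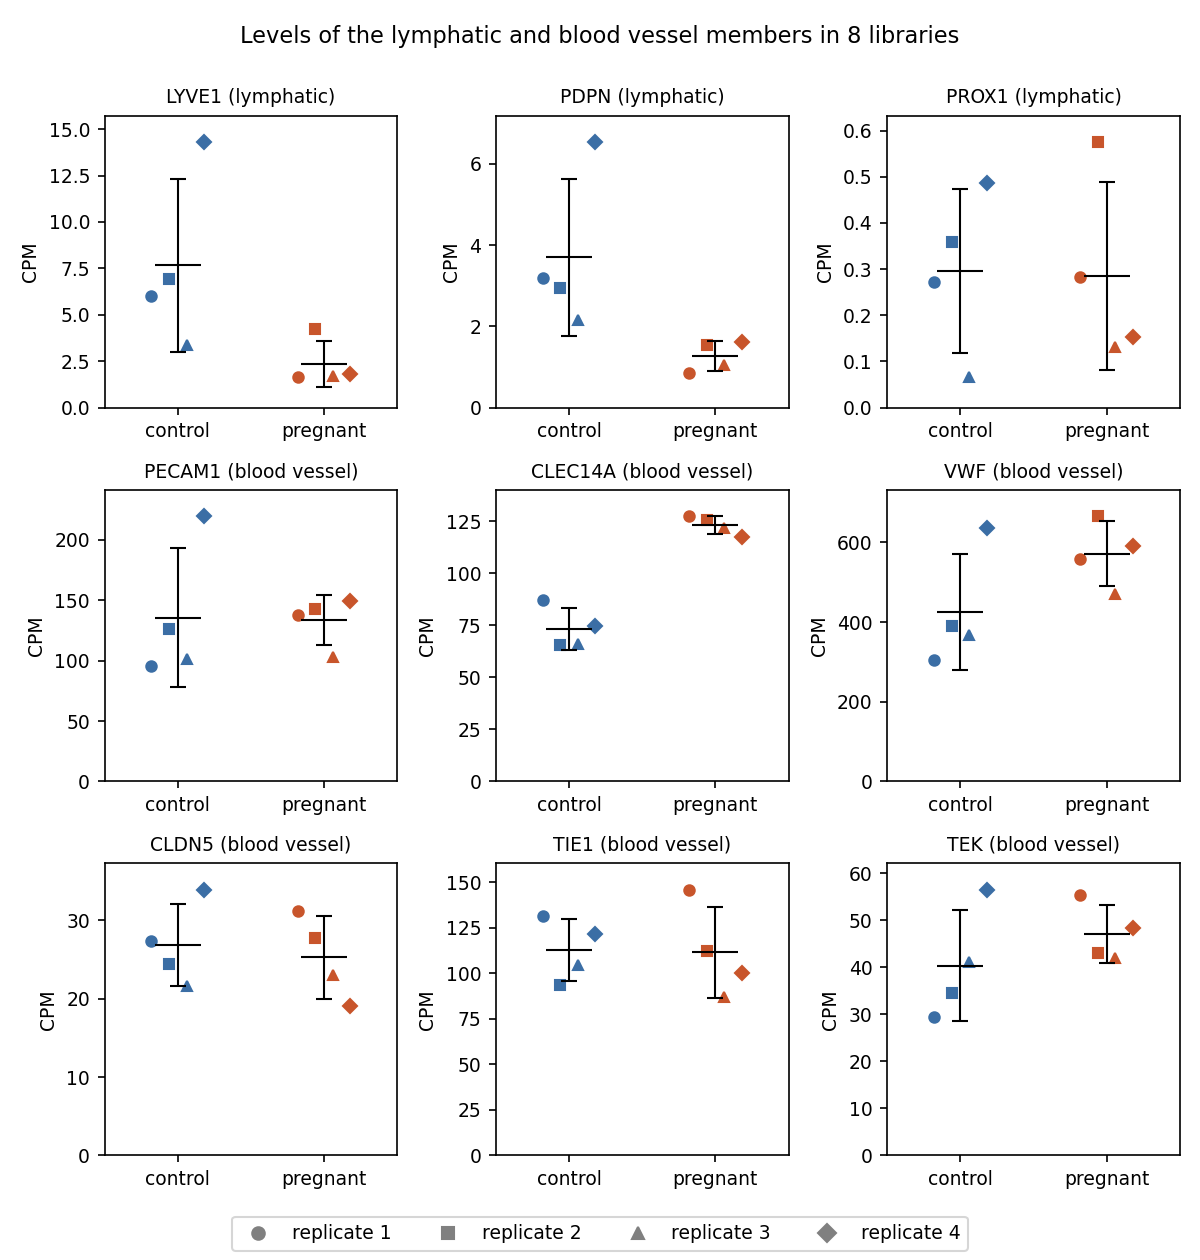
Levels of the 9 members in CPM (y axis of each panel, linear, starting at 0), 1 point per library, with the group mean and SD. LYVE1 and PDPN sit lower in the pregnant gilts, CLEC14A sits higher there, and control replicate 4 is the highest control library in LYVE1, PDPN, PROX1, PECAM1, VWF, TEK and CLDN5.

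LYVE1, the lymphatic vessel receptor for hyaluronan (Entrez gene 397626, on Sscrofa10.2 at chromosome 2, 52284689 to 52301541, plus strand, 6 exons, 2424 bases of exon), was measured at 6.04, 6.95, 3.39 and 14.3 CPM in control replicates 1 to 4. In pregnant replicates 1 to 4 it was at 1.66, 4.23, 1.72 and 1.83 CPM. The groups overlapped, because pregnant replicate 2 lay above control replicate 3. The means were 7.67 ± 4.67 and 2.36 ± 1.25 CPM (SD, n = 4 each), from 1011 and 321 reads. LYVE1 fell by 1.69 ± 0.45 on the log2 scale (SE, 95% interval -2.69 to -0.69, edgeR quasi-likelihood adjusted p = 0.0227). This call did not hold without control replicate 4 (-1.20, edgeR adjusted p = 0.0529) or without pregnant replicate 1, 3 or 4 (-1.55, -1.56 and -1.58, edgeR adjusted p = 0.0583, 0.0668 and 0.0706). Over 15 alternatives its adjusted p ran from 0.00123 to 0.0706.

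PDPN, podoplanin, is a membrane glycoprotein of lymphatic endothelium that activates platelets through their receptor CLEC-2 (Entrez gene 100738269, chromosome 6, 67223547 to 67254533, plus strand, 5 exons, 2425 bases). Its levels were 3.19, 2.93, 2.16 and 6.53 CPM in the control gilts. The pregnant gilts had 0.849, 1.54, 1.06 and 1.62 CPM. Every pregnant library lay below every control library. Means of 3.70 ± 1.94 and 1.27 ± 0.372 CPM (SD, n = 4 each), from 485 and 168 reads, gave a fall of 1.54 ± 0.38 on the log2 scale (SE, 95% interval -2.37 to -0.71, edgeR adjusted p = 0.0143). The call held in all 15 alternatives, with -1.12 without control replicate 4 (edgeR adjusted p = 0.0299) and a range of adjusted p from 0.000878 to 0.0449. Both tested lymphatic members had at least 24 reads in each of the 8 libraries.

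PROX1, the transcription factor that sets lymphatic identity (Entrez gene 100169702, chromosome 9, 142429820 to 142469650, minus strand, 4 exons, 2214 bases), had 8, 12, 2 and 17 reads in the control libraries and 8, 22, 4 and 5 in the pregnant ones. That is 39 reads in each group. In CPM it ranged from 0.0664 to 0.487 in control and from 0.132 to 0.575 in pregnant gilts, with means of 0.296 ± 0.177 and 0.286 ± 0.204 (SD, n = 4 each). The ranges overlapped throughout. PROX1 did not pass the filter on low counts. Fitted without the filter its log2 change was -0.03 with a 95% interval of -1.51 to 1.46 (edgeR adjusted p = 0.991). The interval is wide and its lower bound lay close to the changes of PDPN and LYVE1. Whether PROX1 changed by another amount than they did was not tested. DESeq2 gave -0.04 (adjusted p = 0.984), and both p-values lie in a range from 0.719 to 0.991 over the 7 fits that held the gene.

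PECAM1, the CD31 adhesion molecule of endothelial junctions that leukocytes and platelets also carry (Entrez gene 396941, chromosome 12, 14661765 to 14716419, plus strand, 16 exons, 2587 bases), was at 95.4, 126, 101 and 220 CPM in the control gilts. The pregnant gilts had 138, 143, 103 and 149 CPM. The groups overlapped widely, with control replicate 4 above every other library. The means were 136 ± 57.6 and 133 ± 20.6 CPM (SD, n = 4 each), and the log2 change was -0.02 ± 0.25 (SE, 95% interval -0.57 to 0.53, edgeR adjusted p = 0.959). It did not pass in any of 15 alternatives, which ran from -0.14 to 0.31.

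CLEC14A, a C-type lectin of endothelial cells that takes part in vessel sprouting (Entrez gene 100157365, chromosome 7, 66529036 to 66532064, plus strand, 1 exon, 3029 bases), was at 87.1, 65.8, 65.9 and 74.7 CPM in the control gilts. In the pregnant gilts it was at 127, 126, 122 and 118 CPM. All pregnant libraries lay above all control libraries and within a narrow band. The means rose from 73.3 ± 10.1 to 123 ± 4.38 CPM (SD, n = 4 each), a log2 change of 0.75 ± 0.12 (SE, 95% interval 0.49 to 1.01, edgeR adjusted p = 0.00129). The call held in all 15 alternatives, with adjusted p from 2.02e-06 to 0.00637. PDPN and CLEC14A were the 2 of 8 tested members whose groups did not overlap, a share close to the 26.1% of all tested transcripts without overlap.

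VWF, the von Willebrand factor that endothelial cells store and release to bind platelets (Entrez gene 399543, chromosome 5, 66996507 to 67078139, plus strand, 24 exons, 4596 bases), was at 305, 389, 368 and 637 CPM in the control gilts. The pregnant gilts had 559, 666, 471 and 591 CPM. Control replicate 4 lay among the pregnant libraries and the other 3 control libraries below all of them. The means were 425 ± 146 and 572 ± 80.9 CPM (SD, n = 4 each) and the log2 change was 0.43 ± 0.22 (SE, 95% interval -0.05 to 0.91, edgeR adjusted p = 0.189). Without control replicate 4 it was 0.69 and passed the test (edgeR adjusted p = 0.0115, within a range of 0.0115 to 0.369 over 15 alternatives).

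CLDN5, TIE1 and TEK did not pass the test. CLDN5, the claudin of endothelial tight junctions (Entrez gene 396997, chromosome 14, 54778541 to 54779433, minus strand, 1 exon, 893 bases), had 27.3, 24.4, 21.6 and 33.9 CPM in control and 31.2, 27.7, 23.1 and 19.1 CPM in pregnant gilts. Its log2 change was -0.09 ± 0.19 (SE, 95% interval -0.50 to 0.33, edgeR adjusted p = 0.786). TIE1, the receptor-like partner of TEK (Entrez gene 494022, chromosome 6, 155288374 to 155322124, plus strand, 22 exons, 3529 bases), had 131, 93.7, 105 and 122 CPM in control and 146, 112, 87.2 and 100 CPM in pregnant gilts. In both genes the groups overlapped, and the highest TIE1 library, like the lowest, was a pregnant one.

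The log2 change of TIE1 was -0.02 ± 0.17 (SE, 95% interval -0.40 to 0.36, edgeR adjusted p = 0.953). TEK, the receptor for angiopoietins also called TIE2 (Entrez gene 396729, chromosome 1, 218224166 to 218293512, minus strand, 22 exons, 4233 bases), had 29.4, 34.6, 40.99 and 56.4 CPM in control gilts and 55.3, 42.9, 41.9 and 48.3 CPM in pregnant gilts. Control replicates 1 to 3 lay below all pregnant libraries and control replicate 4 above all of them. The log2 change of TEK was 0.22 ± 0.19 (SE, 95% interval -0.20 to 0.65, edgeR adjusted p = 0.450). None of the 9 gene models shared exon bases with another gene.

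Control replicate 4 stood apart from the other control gilts in several members. Relative to the mean of the other 3 control libraries it was 2.62 times as high in LYVE1, 2.37 times in PDPN, 2.10 times in PROX1, 2.04 times in PECAM1, 1.80 times in VWF and 1.61 times in TEK. The ratios were smaller in CLDN5 (1.39), TIE1 (1.11) and CLEC14A (1.02). Without this library 2 members passed as higher, CLEC14A and VWF, and 1 as lower, PDPN. Leaving out each library in turn was planned, while this count of members without control replicate 4 was chosen after seeing the data.

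**Figure D2:**
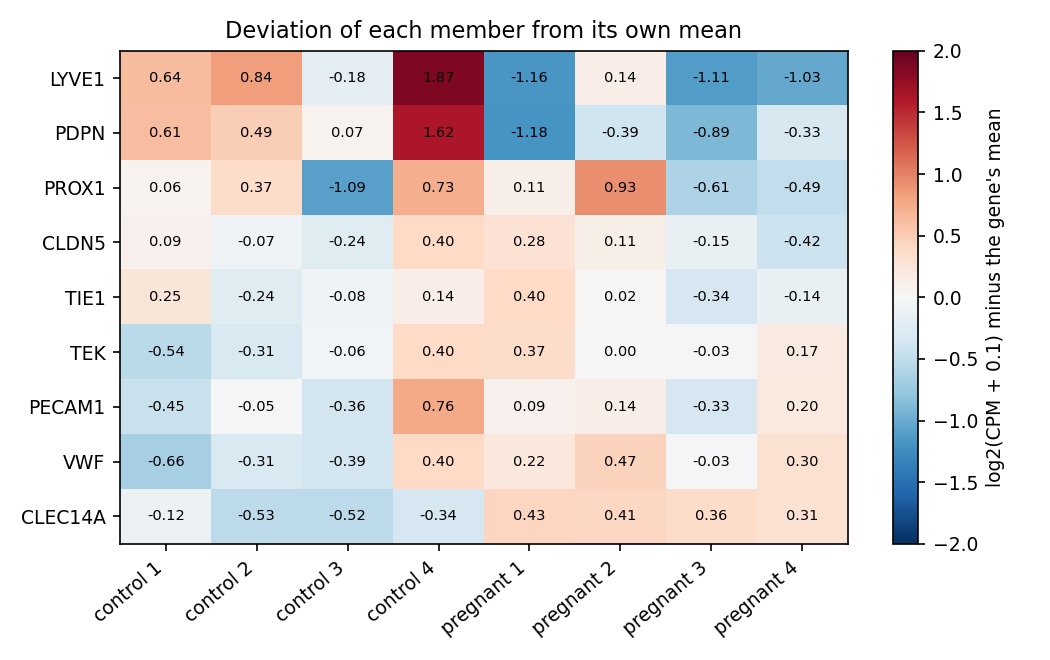
Each row is 1 member and each column 1 library; the color is the deviation of log2(CPM + 0.1) from the gene's mean over the 8 libraries. Control replicate 4 deviates upwards by 1.87 in LYVE1 and 1.62 in PDPN, while CLEC14A is below its mean in all 4 control libraries.

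Divided by transcript length, so that genes can be set against each other, the control levels in CPM per kilobase ran from VWF (92.4 ± 31.8, SD, n = 4) over PECAM1 (52.4 ± 22.3), TIE1 (32.0 ± 4.78), CLDN5 (30.0 ± 5.89) and CLEC14A (24.2 ± 3.32) to TEK (9.53 ± 2.77). The lymphatic members came last, with LYVE1 at 3.16 ± 1.93, PDPN at 1.53 ± 0.798 and PROX1 at 0.134 ± 0.0799 CPM per kilobase. In this order the ranges of mean ± SD overlapped between the neighbours VWF and PECAM1, PECAM1 and TIE1, TIE1 and CLDN5, CLDN5 and CLEC14A, and LYVE1 and PDPN. The level of VWF per kilobase rests on the 24-exon model of the files, which may cover the gene only in part. The pregnant gilts had VWF at 124 ± 17.6, PECAM1 at 51.6 ± 7.98, CLEC14A at 40.6 ± 1.45, TIE1 at 31.6 ± 7.13, CLDN5 at 28.3 ± 5.95 and TEK at 11.1 ± 1.46 CPM per kilobase. LYVE1 was then at 0.974 ± 0.515, PDPN at 0.522 ± 0.154 and PROX1 at 0.129 ± 0.0921. CLEC14A thus came after TIE1 and CLDN5 in the control gilts and before them in the pregnant gilts, where the ranges of mean ± SD overlapped between TIE1 and CLDN5 and between LYVE1 and PDPN.

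Whether the lymphatic members moved by another amount than the blood vessel members was tested by scaling each library to the geometric mean count of the 6 blood vessel members, in place of TMM. That geometric mean was 80.3, 79.6, 78.1 and 116 CPM in the control and 116, 108, 89.0 and 99.3 CPM in the pregnant gilts. On this scale LYVE1 was at 7.52, 8.73, 4.33 and 12.3% of the blood vessel mean in control gilts and at 1.43, 3.91, 1.93 and 1.84% in pregnant gilts. Each pregnant library was then below each control library. The log2 change of LYVE1 was -1.85 ± 0.36 (SE, 95% interval -2.60 to -1.09, edgeR adjusted p = 0.00108), a 3.59-fold lower level.

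PDPN amounted to 3.97, 3.69, 2.76 and 5.63% of the blood vessel mean in control gilts and to 0.730, 1.43, 1.19 and 1.63% in pregnant gilts, again without overlap. Its log2 change was -1.69 ± 0.36 (SE, 95% interval -2.43 to -0.95, edgeR adjusted p = 0.00183), which is 3.22-fold lower. Both calls held in all 12 alternatives for this scale. Without control replicate 4 the changes were -1.58 for LYVE1 (edgeR adjusted p = 0.00749, range 1.96e-06 to 0.00749) and -1.48 for PDPN (edgeR adjusted p = 0.00661, range 0.000226 to 0.00661). PROX1 was at 0.324 ± 0.166% of the blood vessel mean in control and at 0.269 ± 0.180% in pregnant gilts (SD, n = 4 each), with overlap.

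This scaling moved the median log2 change of all tested transcripts to -0.27, and measured from that median LYVE1 lay at -1.58 and PDPN at -1.42. It called 2418 transcripts as lower, or 12.9%, against 1212 as higher, where TMM called 1898 lower and 2111 higher. Without control replicate 4 the number lower rose to 5872, and without control replicate 3 or pregnant replicate 1, 2 or 4 it was 1444, 1606, 1396 and 1601. LYVE1, PDPN and CLDN5 were lower without overlap on this scale, as were 12% of transcripts. CLDN5, which is itself part of the scale, did not pass the test (-0.32 ± 0.22, edgeR adjusted p = 0.309). CLEC14A, also part of the scale, was higher without overlap and did not pass (0.50 ± 0.21, edgeR adjusted p = 0.0989).

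**Figure D3:**
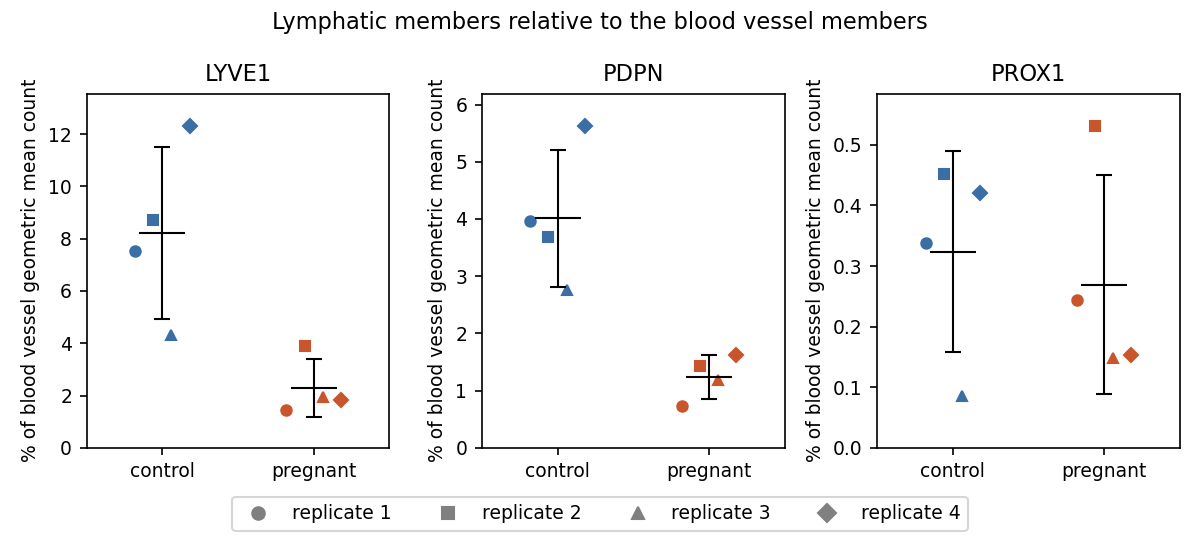
Counts of LYVE1, PDPN and PROX1 in percent of the geometric mean count of the 6 blood vessel members (y axis, linear, starting at 0), 1 point per library with group mean and SD. LYVE1 falls from 8.23 ± 3.30% to 2.28 ± 1.11% and PDPN from 4.01 ± 1.20% to 1.24 ± 0.386% without overlap of the groups, and PROX1 overlaps.

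**Figure D4:**
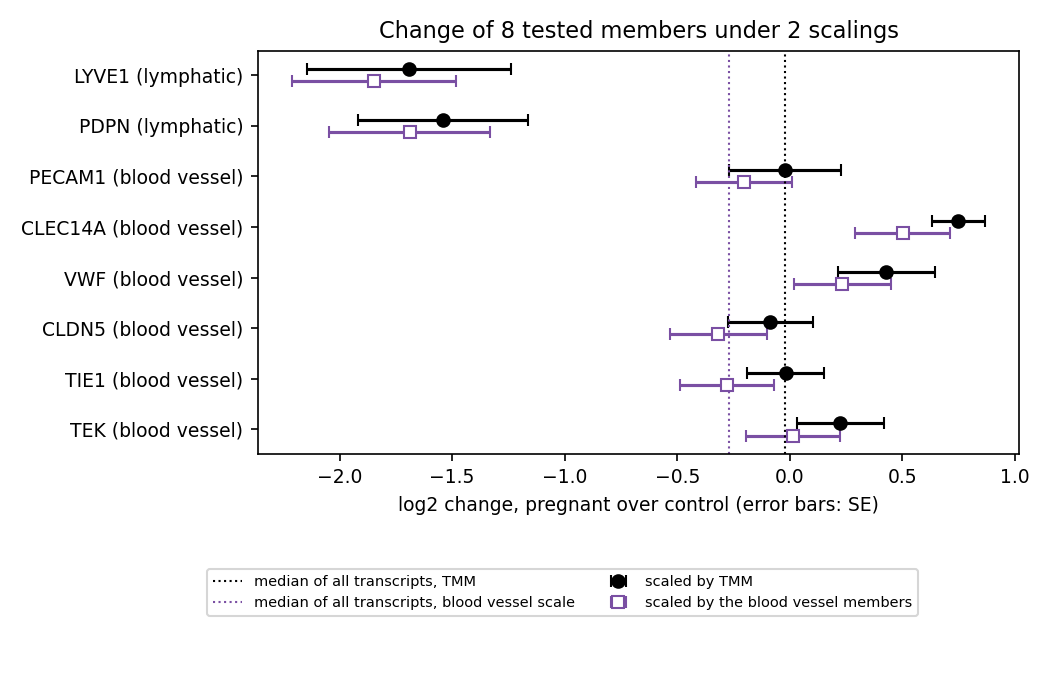
Log2 change of the 8 tested members, pregnant over control, with SE as error bars, under TMM scaling and under scaling to the blood vessel members. LYVE1 and PDPN lie between -1.85 and -1.54 under both scalings, and CLEC14A lies at 0.75 under TMM and 0.50 relative to the blood vessel members.

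Ratios of the counts of 2 members within a library need no scaling between libraries. Of 18 ratios of a lymphatic to a blood vessel member, 10 were lower in every pregnant library than in every control library and 0 were higher. They were the ratios of PDPN to all 6 blood vessel members and those of LYVE1 to PECAM1, CLEC14A, VWF and CLDN5, while PROX1 gave none. LYVE1 and PDPN had already passed as lower and recur over the same denominators, so the 10 ratios are not separate observations. Of all tested transcripts 10.6% had a ratio to PECAM1 without overlap in either direction. That share holds for PECAM1 as denominator only and is not one for the 18 ratios. The mean ratio of LYVE1 to PECAM1 was 0.0542 in control and 0.0176 in pregnant gilts, and that of PDPN to PECAM1 was 0.0269 and 0.00951.

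Among the lymphatic members, the ratio of LYVE1 to PDPN had a mean of 2.00 in control and 1.87 in pregnant gilts, with overlapping libraries. The ratio of LYVE1 to PROX1 was lower in every pregnant library, with means of 30.5 and 9.56, on the few PROX1 reads. Among the 15 ratios within the blood vessel members 3 separated the groups. The mean ratio of CLEC14A to CLDN5 was 2.78 in control and 5.01 in pregnant gilts and that of CLEC14A to TIE1 was 0.652 and 1.14, both higher in pregnant gilts. That of PECAM1 to VWF was lower, with 0.314 and 0.233. CLEC14A had already passed as higher and recurs in the ratios to CLDN5 and TIE1, so these are not separate observations. Of all tested transcripts 10.6% had a ratio to PECAM1 without overlap, and no such share was computed for CLDN5 or TIE1.

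The profile over the 8 libraries, centred on the gene's mean, was compared between members by root mean square distance on the log2 scale. The nearest pairs were CLDN5 with TIE1 (0.189), VWF with TEK (0.216) and PECAM1 with VWF (0.241). LYVE1 and PDPN lay 0.364 apart, and the largest distance among the members was that of LYVE1 from CLEC14A (1.32). Among 10209 other genes with a symbol, SUSD2 (0.383) and SDC1 (0.453) lay nearest to LYVE1, and SDC1 (0.257), SUSD2 (0.276) and KCNJ5 (0.309) nearest to PDPN. SDC1, the proteoglycan syndecan-1 of epithelia and plasma cells, had 69.9 ± 27.8 CPM in control and 24.4 ± 1.90 CPM in pregnant gilts (SD, n = 4 each). Nearest to PECAM1 were PODXL (0.118), SLCO2A1 (0.145) and MGLL (0.156), and nearest to CLEC14A were ARHGEF6 (0.0533), ARHGAP25 (0.0843) and BNIP3 (0.0847).

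Of 10 further genes of lymphatic endothelium 7 were tested, of which 0 rose and 1 fell, with a median log2 change of -0.08. Among all tested transcripts 11.2% were called higher and 10.1% lower. The gene that fell was GATA2, a transcription factor of lymphatic valves that uterine stroma also makes, from 143 ± 16.6 to 80.1 ± 8.76 CPM (SD, n = 4 each, log2 change -0.84 ± 0.13, edgeR adjusted p = 0.000956). FLT4, the receptor for the lymphatic growth factors VEGFC and VEGFD, was at 30.5 ± 11.04 CPM in control and 28.8 ± 9.05 CPM in pregnant gilts (log2 change -0.08 ± 0.28, edgeR adjusted p = 0.867). CCL21, the chemokine with which lymphatic vessels attract leukocytes, was at 6.78, 3.29, 0.498 and 9.74 CPM in control and at 1.31, 4.63, 1.99 and 0.671 CPM in pregnant gilts. The groups overlapped, and its log2 change was -1.23 with a 95% interval of -3.01 to 0.55 (edgeR adjusted p = 0.307). MMRN1, multimerin, stored in lymphatic endothelium and platelets, had a log2 change of -0.86 with an interval of -2.58 to 0.87 (edgeR adjusted p = 0.470). FOXC2, a transcription factor of lymphatic valves, lay on the other side, with 1.03 ± 0.361 and 1.604 ± 0.209 CPM, overlapping groups and a log2 change of 0.64 with an interval of -0.04 to 1.32 (edgeR adjusted p = 0.168). In CCL21 and MMRN1 control replicate 3 was the lowest control library, as it was in LYVE1, PDPN and PROX1. Relative to the blood vessel members 0 of the 7 genes rose and 1 fell, GATA2 (-1.10 ± 0.22, edgeR adjusted p = 0.000986). The median of the 7 on that scale was -0.33, against -0.27 over all tested transcripts, of which 12.9% were called lower.

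Of 30 further genes of blood vessel endothelium 25 were tested, of which 6 rose and 0 fell, with a median log2 change of 0.26. Among all tested transcripts 11.2% were called higher and 10.1% lower. KDR, the main VEGF receptor of blood endothelium, rose from 92.5 ± 15.8 to 158 ± 32.0 CPM (SD, n = 4 each, log2 change 0.77 ± 0.17, edgeR adjusted p = 0.0090). PTPRB, the endothelial phosphatase that acts on TEK, rose by 0.70 ± 0.16 (edgeR adjusted p = 0.0118). ICAM2 and TAL1, which blood cells also express, rose by 1.06 ± 0.16 and 1.14 ± 0.16 on the log2 scale (edgeR adjusted p = 0.000892 and 0.000695). The other risers were SELE and RAMP2. The libraries of the groups did not overlap in these 6 genes, nor did they in 26.1% of all tested transcripts. Relative to the blood vessel members 2 of the 25 rose, ICAM2 and TAL1 (0.83 ± 0.24 and 0.91 ± 0.24, edgeR adjusted p = 0.0198 and 0.0095). The fit on that scale called 1212 of all 18783 tested transcripts higher and 2418, or 12.9%, lower. On that scale SOX17, a transcription factor, fell by 1.15 ± 0.35 (edgeR adjusted p = 0.0355), and KDR, PTPRB, SELE and RAMP2 did not pass. SOX17 was at 411, 169, 245 and 135 CPM in control replicates 1 to 4, and which cells made it was not tested. Without control replicate 4, SELE no longer passed (1.25, edgeR adjusted p = 0.0592), ERG and FLI1 passed as higher (0.45 and 0.73), and SOX17 passed as lower (-1.02, edgeR adjusted p = 0.0211, against -0.83 and 0.0806 with all libraries).

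**Figure D5:**
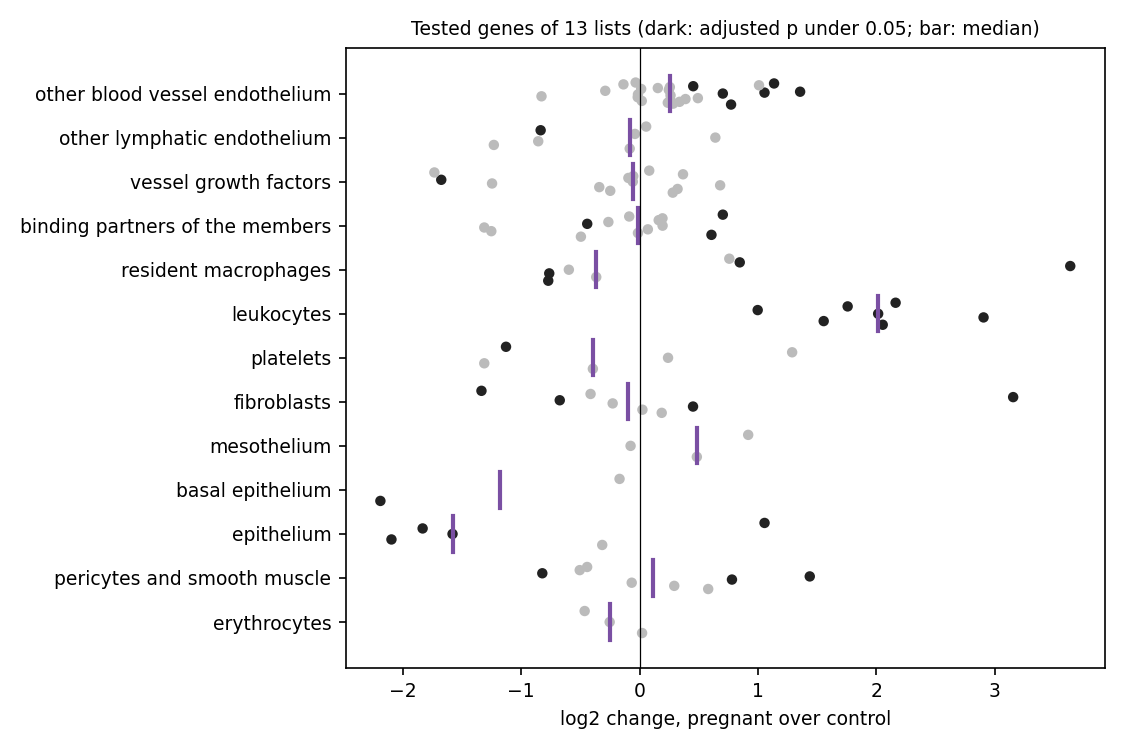
Log2 change, pregnant over control, of the tested genes of 13 gene lists (1 row per list, 1 point per gene, dark points with an edgeR adjusted p under 0.05, bar at the median). The other blood vessel genes have their median at 0.26 and the other lymphatic genes at -0.08, while all 7 leukocyte genes lie to the right of 0.

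Of 13 tested vessel growth factors 0 rose and 1 fell, with a median of -0.06, where 11.2% of all tested transcripts rose and 10.1% fell. ANGPT4, a ligand of TEK, fell from 4.19 ± 1.70 to 1.305 ± 0.398 CPM (SD, n = 4 each, log2 change -1.68 ± 0.38, edgeR adjusted p = 0.0099). PGF, placental growth factor, had a log2 change of 0.68 ± 0.27, ANGPT1, the main activating ligand of TEK, one of -1.25 ± 0.52 and APLN, apelin, one of -1.73 ± 0.66, none of which passed (edgeR adjusted p = 0.102, 0.118 and 0.0887). PGF passed in 1 of 15 alternatives and APLN in 2. The ligands of FLT4 did not pass either: VEGFC had 14.4 ± 2.80 and 17.9 ± 2.03 CPM, and VEGFD 21.2 ± 5.78 and 16.7 ± 5.31 CPM, in control and pregnant gilts. ANGPT2, the angiopoietin released by endothelium, had 18.1 ± 3.785 and 17.4 ± 1.61 CPM. Of 13 tested binding partners of the members 2 rose and 1 fell, against the same shares of all transcripts, with a median of -0.01. CD44, the hyaluronan receptor related to LYVE1, rose by 0.61 ± 0.19 (edgeR adjusted p = 0.0419), a call lost in 7 of 15 alternatives (range 0.0136 to 0.1197). CTNND1, the catenin that binds the cadherin tail, fell by 0.44 ± 0.12 (edgeR adjusted p = 0.0288), lost in 5 of 15 (range 0.0103 to 0.0857), and the other riser was PTPRB.

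Other cell types also make some of the members, and markers of these were read in the same fit. That fit called 11.2% of all tested transcripts as higher and 10.1% as lower. For LYVE1, which resident macrophages carry, 2 of 7 tested macrophage genes rose (TIMD4 and CSF1R) and 2 fell (MRC1 and STAB1). The largest change was that of TIMD4, from 0.423 ± 0.215 CPM in control to 5.31 ± 3.21 CPM in pregnant gilts (SD, n = 4 each). Its log2 change was 3.64 ± 0.50 (edgeR adjusted p = 0.000604). Whether macrophages or endothelium made MRC1 and STAB1 here was not tested. MRC1, the mannose receptor, was at 13.5 ± 3.58 CPM in control and 7.88 ± 1.59 CPM in pregnant gilts (SD, n = 4 each, -0.77 ± 0.22, edgeR adjusted p = 0.0295), a call lost in 5 of 15 alternatives (range 0.0095 to 0.0841). STAB1, a scavenger receptor that shares exon bases with another gene in this annotation, fell by 0.76 ± 0.17 (edgeR adjusted p = 0.0085). The summed macrophage genes ranged from 340.0 to 517 CPM in control and from 356 to 475 CPM in pregnant gilts. Its largest parts moved in opposite directions, so the sum does not measure macrophage content. STAB1 went from 220 ± 37.7 to 130 ± 25.1 CPM and CSF1R from 134 ± 30.2 to 242 ± 26.3 CPM (SD, n = 4 each). The part of macrophages in the change of LYVE1 was not tested.

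For PDPN, which fibroblasts, mesothelium and basal epithelium also make, 2 of 8 fibroblast genes rose (THY1 and LUM) and 2 fell (COL3A1 and DPT). The largest change was that of THY1, from 28.2 ± 8.11 CPM in control to 252 ± 66.6 CPM in pregnant gilts (SD, n = 4 each). Its log2 change was 3.16 ± 0.25 (edgeR adjusted p = 1.95e-05), and the call held in all 15 alternatives. The sum of the 8 genes was 23377 to 27932 CPM in control and 14576 to 21560 CPM in pregnant gilts. Most of it was collagen, with means of 14899 and 9338 CPM for COL3A1 and 8719 and 7450 CPM for COL1A2, which did not pass. DCN (907 and 922 CPM), PDGFRA (139 and 158 CPM) and FAP did not pass either. The calls of LUM, COL3A1 and DPT were lost in 5, 4 and 1 of 15 alternatives, and COL3A1 and COL1A2 each share exon bases with another gene. Of 3 tested mesothelial genes 0 passed in either direction, with sums of 20.5 to 49.8 and 30.8 to 42.1 CPM. Nearly all of these sums was WT1, with means of 36.2 and 34.3 CPM. UPK3B had means of 0.392 and 0.548 CPM and LRRN4 of 0.352 and 0.664 CPM, in control and pregnant gilts. Of 2 tested basal epithelial genes KRT5 fell by 2.19 ± 0.40 (edgeR adjusted p = 0.0029), the sums being 6.53 to 15.5 and 2.32 to 4.21 CPM, with TP63, the defining factor of basal cells, at 0 CPM in every pregnant library and at a mean of 0.0299 CPM in control. Of 5 epithelial genes 1 rose (CLDN4) and 3 fell (KRT8, KRT18 and KRT19), with sums of 2013 to 3015 CPM in control and 1350 to 1885 CPM in pregnant gilts. The part of these cells in the change of PDPN was not tested.

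For PECAM1, CLEC14A and the other blood vessel genes, leukocyte and platelet genes were read. All 7 tested leukocyte genes rose, with a median of 2.02 and sums of 151 to 233 CPM in control and 441 to 674 CPM in pregnant gilts. PTPRC, the CD45 antigen, went from 12.4 ± 3.97 to 51.7 ± 11.4 CPM (SD, n = 4 each, edgeR log2 change 2.05 ± 0.24). Of 5 tested platelet genes 0 rose and TUBB1 fell, with sums of 23.1 to 32.9 CPM in control and 17.8 to 18.6 CPM in pregnant gilts. The platelet genes PPBP and CLEC1B, the latter encoding the CLEC-2 receptor of podoplanin, were near 0, with CLEC1B at 0.0316 and 0.0165 CPM on average. The part of leukocytes in the changes of CLEC14A, ICAM2 and TAL1, or in the level of PECAM1, was not tested.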

How the data were processed

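Per the file headers, the deposited values are raw counts of reads for each transcript of a merged assembly, with 1 file per animal, and exon positions on Sscrofa10.2. CASAVA 1.6, TopHat 1.4, Cufflinks 1.3 and DESeq are listed, with no role, per the submitters' processing notes; the counting tool is not given in the sources used here. A RefSeq table of Sscrofa11.1 served for gene symbols only. Tests used edgeR 4.0.16 in R 4.3.3: TMM scaling, the filterByExpr filter (minimum count 10) and a robust quasi-likelihood fit with group as its 1 term. The filter left 18783 transcripts of 15913 genes and removed 5356. A second fit scaled libraries to the geometric mean count of the blood vessel members. SE are those implied by the F statistic. The procedure was tested on simulated data. Alternatives used DESeq2 1.42.0, limma 3.58.1 (voom), other normalizations and filters, 1 transcript per gene, a block on the replicate number, other blood vessel scales and each library left out.

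Named genes are all members, up to 4 tested genes per list with the smallest p, and the 3 genes of nearest profile for LYVE1, PDPN, PECAM1 and CLEC14A, of an average log2 CPM of at least 1. FLT4, VEGFC, VEGFD, ANGPT2, SELE, RAMP2, ERG, FLI1, SOX17, COL1A2, DCN, PDGFRA, FAP, DES, TP63, PPBP and CLEC1B were named after their values were seen. Not every gene that the rule allows is described. The members and the gene lists were chosen with earlier results of these data known. Read counts limit the precision: PCR reads are not independent molecules, and depth was 28035007 to 41016150 counts per library. Gilts were separate animals.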

Additional observations from a re-analysis of the deposited data

Results flagged for a closer look

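LYVE1 in pregnant replicate 2 was at 4.23 CPM, far above the other 3 pregnant libraries, the nearest of which was at 1.83 CPM. The gap was 0.935 of the range of the group, above Dixon's 95% critical value for 4 samples. This was the only such library among 18 groups of 4 looked at (9 members in each group of gilts), and chance flags about 1 in 20 groups. PROX1 was also highest in this library, with 0.575 CPM, and CCL21 was highest there among the pregnant gilts, with 4.63 CPM.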

How the results depend on the processing

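The log2 changes of PDPN and CLEC14A, and those of LYVE1 and PDPN relative to the blood vessel members, kept their direction and stayed past the threshold in all alternatives run. LYVE1 ranged from -2.14 to -1.20 when each library was left out in turn and missed the threshold in 4 of these 8 fits. VWF ranged from 0.32 to 0.69 in the same way and passed in 1 of them. The cause was not tested. Leaving out each library changed the number of lower transcripts from 1898 to between 1265 (without pregnant replicate 2) and 2017, and relative to the blood vessel members from 2418 to between 1396 and 5872. Taking CLEC14A out of the blood vessel scale gave 1472 lower transcripts. Taking out PECAM1 and VWF, an alternative chosen after seeing the data, gave -1.85 for LYVE1 and -1.68 for PDPN. With the replicate block LYVE1 was at -1.61 and PDPN at -1.47 (edgeR adjusted p = 0.0246 and 0.0130, ranges 0.00123 to 0.0706 and 0.000878 to 0.0449), and 2070 transcripts were higher and 1813 lower. Same-numbered gilts share only a number: their deviations correlated at 0.245, -0.176, -0.020 and 0.1002. Other transcripts of the same gene could not be tried, since each member had 1. With 39 reads in each group, depth limits PROX1, and CDH5 was not analysed here.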

Other observations

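Of 8 tested genes of pericytes and smooth muscle, the cells that wrap the vessels, 2 rose and 1 fell, with a median log2 change of 0.11. Among all tested transcripts 11.2% were called higher and 10.1% lower. ABCC9 and KCNJ8, which together form a potassium channel of pericytes, rose from 8.12 ± 1.46 to 22.02 ± 8.44 CPM and from 21.8 ± 3.05 to 37.4 ± 5.09 CPM (SD, n = 4 each; edgeR log2 changes 1.44 ± 0.27 and 0.78 ± 0.15, adjusted p = 0.0035 and 0.0039). ACTA2, the smooth muscle actin, fell from 460.0 ± 94.4 to 260.3 ± 48.3 CPM (edgeR log2 change -0.82 ± 0.18, adjusted p = 0.0075). The groups did not overlap in any of these 3 genes, nor did they in 26.1% of all tested transcripts. The calls of these 3 genes held in all 15 alternatives of the comparison between groups. Relative to the blood vessel members ABCC9 rose, ACTA2, TAGLN and DES fell, and KCNJ8 did not pass (0.53 ± 0.22, edgeR adjusted p = 0.0941). On that scale 12.9% of all tested transcripts were called lower. Of 3 tested erythrocyte genes, 0 passed in either direction, with a median of -0.25.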
